A study of Mus musculus with 6 samples.

Results

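Mitochondrial fatty acid oxidation (FAO) was followed through the transcripts of 10 enzymes, which were the rows of the count table whose gene symbol was Acsl5, Cpt1a, Cpt2, Acadvl, Acadl, Acadm, Hadha, Hadhb, Eci1 or Decr1. All 10 were found among the 13709 genes of the table, and all 10 were among the 13594 genes kept for testing after removal of low counts. The list was chosen by the role of each enzyme, from the activation of a fatty acid to the last cleavage, and Hadha was on it as the enzyme that the study followed as a candidate target of the zinc finger protein Zfp335.

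The samples were regulatory T cells (Tregs), the CD4+ lymphocytes that are defined by Foxp3 and hold back immune responses. They were sorted as CD4+YFP+CD25+ cells from mice on the C57BL/6 background, which per the study's methods were 2 weeks old. The 3 WT samples came from Foxp3Cre mice and the 3 KO samples from Foxp3Cre Zfp335fl/fl mice, so that both genotypes carried the Foxp3 allele that makes YFP and Cre recombinase, and KO differed by the floxed Zfp335 alleles. Cre made under Foxp3 control is meant to delete Zfp335 in the Tregs of a KO animal, and an effect inside the cell cannot be told apart from an effect of the state of that animal. The labels named both lymph nodes and spleen as the tissue, and nothing stated how many mice went into a sample, so that p-values measure the spread between these samples.

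Long-chain fatty acids are burned in the mitochondrial matrix. An acyl-CoA synthetase first activates the fatty acid, the carnitine shuttle carries it across the mitochondrial membranes, and each turn of the beta-oxidation spiral then dehydrogenates, hydrates, dehydrogenates again and cleaves the chain to release acetyl-CoA. Chains with double bonds need auxiliary enzymes to enter the spiral, and FAO is widely described as a source of energy for Tregs.

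The sequences before the start sites of 4 genes are given, that of Hadhb because it is shared with Hadha, and those of Acadl, Acsl5 and Eci1 because these genes were called. Hadha and Hadhb lie head to head on chromosome 5, with start sites 273 bases apart on opposite strands, and their windows of 250 bases share 228 bases. Acadl and Acsl5 were called higher in KO and Eci1 lower. Each window holds the 250 bases before a RefSeq start site on the strand of the gene, written 5′ to 3′. The sequences are from the RefSeq promoters of GRCm38.p6, the same assembly as mm10. The start site used for Acsl5, 55253369, lay inside its RefSeq gene span, which begins at 55251861. Capitals mark GC boxes (GGGCGG or its reverse complement CCGCCC) and, in Acsl5, a CCAAT box (CCAAT or ATTGG), and no marked motif overlapped another. Both strands were searched.
Hadhb, chr5:30155003-30155252, plus strand: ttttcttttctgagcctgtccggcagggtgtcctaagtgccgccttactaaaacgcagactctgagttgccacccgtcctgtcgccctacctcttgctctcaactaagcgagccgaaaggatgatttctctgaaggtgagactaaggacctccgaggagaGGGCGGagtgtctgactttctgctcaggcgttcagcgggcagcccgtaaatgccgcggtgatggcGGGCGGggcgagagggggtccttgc
Acadl, chr1:66863310-66863559, minus strand: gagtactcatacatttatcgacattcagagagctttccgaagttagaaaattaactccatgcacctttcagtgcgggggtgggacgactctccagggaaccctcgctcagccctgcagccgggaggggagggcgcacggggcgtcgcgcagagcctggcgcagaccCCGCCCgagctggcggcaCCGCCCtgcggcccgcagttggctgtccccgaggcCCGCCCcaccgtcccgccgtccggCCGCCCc
Acsl5, chr19:55253119-55253368, plus strand: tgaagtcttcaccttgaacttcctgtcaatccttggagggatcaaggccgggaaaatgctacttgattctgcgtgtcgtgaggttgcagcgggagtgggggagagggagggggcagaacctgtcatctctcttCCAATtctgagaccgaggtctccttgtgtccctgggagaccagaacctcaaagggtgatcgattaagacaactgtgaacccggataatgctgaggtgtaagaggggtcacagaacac
Eci1, chr17:24426433-24426682, plus strand: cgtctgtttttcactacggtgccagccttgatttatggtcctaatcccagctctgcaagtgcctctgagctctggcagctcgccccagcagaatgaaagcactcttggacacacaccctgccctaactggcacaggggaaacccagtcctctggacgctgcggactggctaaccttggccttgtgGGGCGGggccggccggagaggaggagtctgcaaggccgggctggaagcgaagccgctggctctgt

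The window of Hadhb held 2 GC boxes, and the one that began 90 bases before the start of Hadhb also lay 188 to 183 bases before the start of Hadha. Acadl had 4 GC boxes and a GC content of 68.0%, against 58.8% for Hadhb, 61.2% for Eci1 and 52.8% for Acsl5, and a median of 52.4% over all promoters. RefSeq windows were found for 9 of the 10 enzymes, all but Decr1. The start site used for Cpt1a, 3323301, also lay inside its gene span, which begins at 3322326. GC boxes were in 6 of these 9 windows and in 32.7% of all 32851 promoters, and CCAAT boxes in 2 of 9 and in 33.8% of all. The letters AGGTCA, a nuclear receptor half-site, were in the windows of Cpt1a, Acadvl and Acadm and in 14.0% of all, and CCGGAA, the core of an ETS site, was in that of Cpt2 and in 12.0% of all. A match describes letters only.

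Zfp335 itself was examined first. In CPM (counts relative to the TMM-scaled library total) the WT replicates 1 to 3 were at 101, 94.3 and 103, and the KO replicates at 37.0, 37.9 and 40.2. All KO samples were below all WT samples, with a log2 fold change of -1.37 (SE 0.07, edgeR adjusted p 2.14e-05), and KO retained 38.6% of the WT level. Zfp335 (chr2:164891882-164912585) shares 1107 exon bases with Pcif1 on the opposite strand, and the position of the remaining reads within Zfp335 is not known from a count per gene.

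Total counts lay between 32032631 and 40728419 per sample, so that 3 counts, taken as the floor, corresponded to 0.0737 to 0.0937 CPM, and the enzyme with the fewest reads, Eci1, still had 291 to 636 counts per sample. WT replicate 3 stood apart from the other WT samples. The median squared difference of gene counts was taken relative to that of sampling noise, so that the values are on a squared scale. It was 10.1 between WT replicates 1 and 2, 5.27 to 6.07 within KO and 46.2 to 53.0 between genotypes. Between WT replicate 3 and the other WT samples it was 25.8 and 26.3. Values without this sample are therefore given beside each enzyme. The labels gave no sequencing batch. Genes were called at a fold change above 1.5 (0.58 on the log2 scale), p under 0.05 and an adjusted p under 0.1, the cutoffs of the study.

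Between KO and WT Tregs, 4 of the 10 enzymes were called, with Acsl5 and Acadl higher and Eci1 and Decr1 lower. Over all genes tested, 24.4% were called, 11.9% as higher and 12.5% as lower. Within this list of 10, the activating enzyme and 1 acyl-CoA dehydrogenase were thus higher in KO. Both listed auxiliary enzymes for unsaturated chains were lower, and neither subunit of the trifunctional protein was called. Among the 6 enzymes that were not called, Cpt2, Acadvl, Acadm and Hadha had an adjusted p under 0.1 and a fold change under 1.5, and Cpt1a and Hadhb passed neither cutoff. By the fitted sign, 5 of the 10 were higher and 5 lower, and the median log2 fold change was -0.09, beside -0.04 over all genes. The KO and WT samples did not overlap for 7 enzymes, 3 with KO higher and 4 with KO lower, where 53.8% of all genes tested did not overlap, 26.2% with KO higher and 27.6% with KO lower.

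With stricter or looser cutoffs the list changed at its edges. When the test itself was made against a fold change of 1.5 (glmTreat in edgeR, adjusted p under 0.05), only Acadl remained as higher and Decr1 as lower, where 10.3% of all genes passed, 5.88% as higher and 4.43% as lower. At an adjusted p under 0.05 and no limit on the fold change, 6 enzymes passed, 3 higher with the addition of Cpt2 and 3 lower with the addition of Acadm, where 38.6% of all genes passed, 19.2% as higher and 19.4% as lower.

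**Figure D1:**
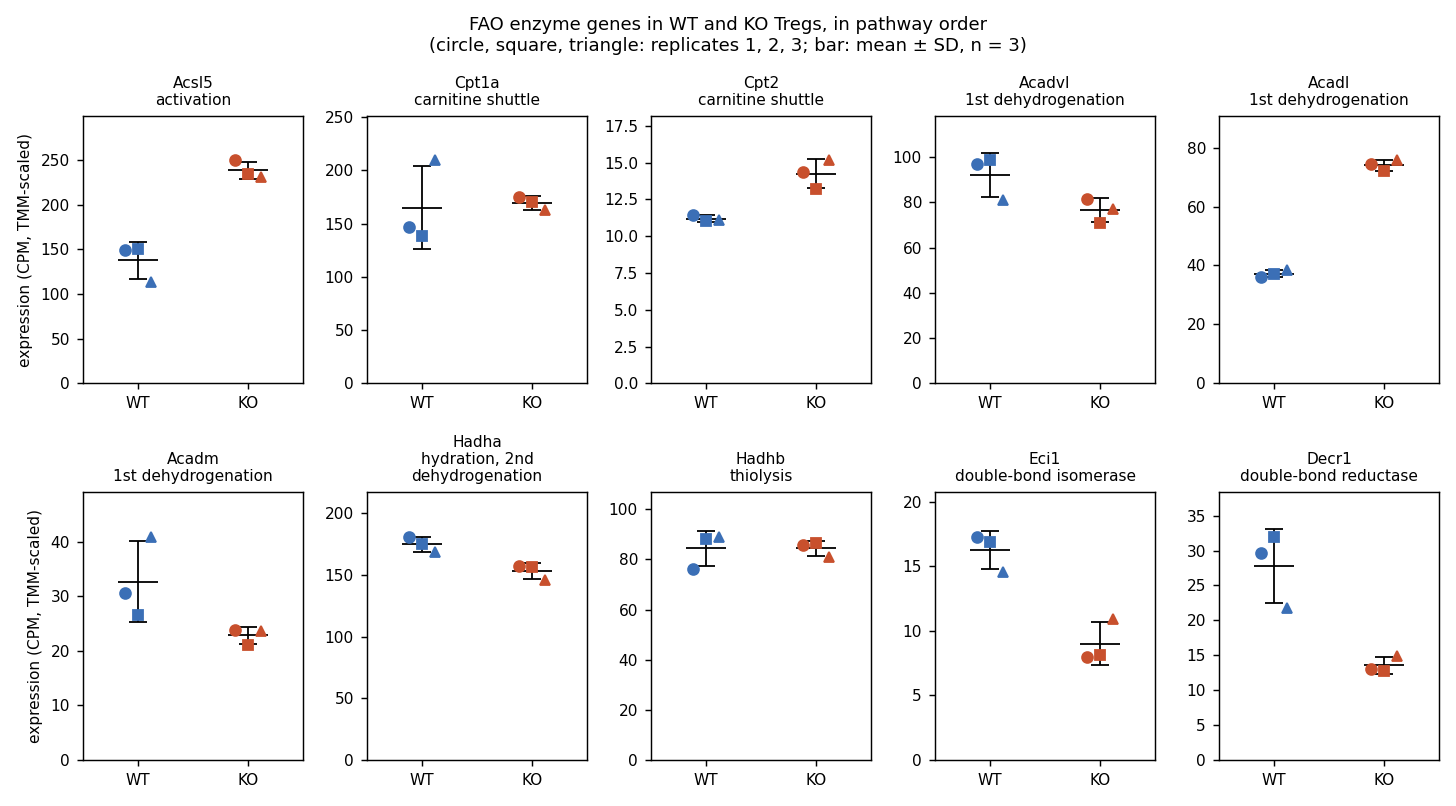
Expression of the 10 enzymes in CPM (vertical axis, linear from 0, 1 panel per gene in pathway order) in WT (blue) and KO (red). Points are samples, with circle, square and triangle for replicates 1, 2 and 3, and bars give the mean ± SD (n = 3). Acsl5 and Acadl lie higher in every KO sample, Eci1 and Decr1 lower, and the samples of Cpt1a, Acadvl and Hadhb overlap.

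The first step was examined at Acsl5 (chr19:55251861-55296628, plus strand), an acyl-CoA synthetase that joins long-chain fatty acids to coenzyme A. Its level was 149, 150.2 and 114 CPM in WT and 249.8, 235 and 231 CPM in KO, always in the order of replicates 1 to 3. Every KO sample was above every WT sample, and WT replicate 3 was the lowest of all. The means were 138 ± 20.9 CPM in WT and 239 ± 9.76 CPM in KO (SD, n = 3), so that KO stood at 173% of WT. The log2 fold change was 0.79 (SE 0.11, 95% confidence interval 0.53 to 1.06, edgeR adjusted p 0.00133), and it was 0.67 without WT replicate 3, still above the fold cutoff. Acsl5 shares 404 exon bases with Zdhhc6 on the opposite strand, and since the strand setting of the counting was not stated, reads of that stretch cannot be assigned with certainty.

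Entry into mitochondria was represented by both carnitine palmitoyltransferases. Cpt1a (chr19:3322326-3385735, plus strand), the outer membrane enzyme that is regarded as the control point of the pathway, gave 147, 139 and 209 CPM in WT and 175, 170.4 and 163 CPM in KO. The KO samples lay between WT replicates 1 and 2 on one side and WT replicate 3 on the other. KO stood at 103% of WT, a log2 fold change of 0.04 (SE 0.15, 95% confidence interval -0.31 to 0.38, edgeR adjusted p 0.868), which gave no difference beyond the spread of the WT samples. A stretch of 335 bases in Cpt1a transcripts matched Thoc7 at 90.7%. Its value hung on single WT samples, since it was 0.24 without WT replicate 3 (adjusted p 0.00343, below the fold cutoff), and -0.039 and -0.077 without WT replicates 1 and 2.

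Cpt2 (chr4:107903982-107923589, minus strand), the inner membrane enzyme that returns the chain to coenzyme A, gave 11.5, 11.02 and 11.1 CPM in WT and 14.4, 13.2 and 15.1 CPM in KO. The groups did not overlap, and the WT samples were close together, with a coefficient of variation of 2.14%. The mean KO level was 127% of WT, with a log2 fold change of 0.35 (SE 0.11, 95% confidence interval 0.08 to 0.61, edgeR adjusted p 0.0434), and Cpt2 was not called, as it did not reach the fold cutoff. It was 0.34 without WT replicate 3.

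The first dehydrogenation is shared by acyl-CoA dehydrogenases that prefer chains of different length, and their differences ran in both directions. Acadl (chr1:66830839-66863309, minus strand), the long-chain enzyme, gave 36.1, 37.1 and 38.4 CPM in WT and 74.4, 71.9 and 75.7 CPM in KO. The samples were tight within each genotype and far apart between them. The means were 37.2 ± 1.14 CPM in WT and 74.0 ± 1.90 CPM in KO (SD, n = 3), so that KO stood at 199% of WT. The log2 fold change was 0.99 (SE 0.07, 95% confidence interval 0.83 to 1.15, edgeR adjusted p 5.88e-05), with 1.01 without WT replicate 3. No other protein-coding gene shared exon bases with Acadl.

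Acadvl (chr11:70010183-70015428, minus strand), the very-long-chain enzyme of the inner membrane, gave 96.9, 98.6 and 81.1 CPM in WT and 81.6, 70.8 and 77.2 CPM in KO. WT replicate 3 fell within the KO samples, and WT replicates 1 and 2 lay above them. KO stood at 83.1% of WT, a log2 fold change of -0.27 (SE 0.10, 95% confidence interval -0.49 to -0.04, edgeR adjusted p 0.0615), and -0.36 (adjusted p 0.000622) without WT replicate 3, in both cases under the fold cutoff. Acadvl shares 1151 exon bases with Dvl2 on the opposite strand, so its counts are uncertain.

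Acadm (chr3:153922353-153944643, minus strand), the medium-chain enzyme, gave 30.7, 26.5 and 40.9 CPM in WT and 23.8, 21.1 and 23.5 CPM in KO. The groups did not overlap, and WT replicate 3 was the highest by far. KO stood at 69.8% of WT, with a log2 fold change of -0.52 (SE 0.16, 95% confidence interval -0.89 to -0.15, edgeR adjusted p 0.0349), so that Acadm was not called by the size of its change. The value was -0.33 (adjusted p 0.0130) without WT replicate 3, and -0.65 without WT replicate 2, where Acadm was called. A copy elsewhere in the genome, Gm5131, matched Acadm transcripts at 93.5% over 681 bases and was not analysed here.

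The trifunctional protein of the inner membrane carries out the rest of a turn on long chains. Its alpha subunit Hadha (chr5:30119423-30154980, minus strand), which hydrates and then dehydrogenates the chain, gave 181, 175 and 169 CPM in WT and 158, 157 and 146 CPM in KO. All KO samples were below all WT samples by a small margin. The means were 175 ± 6.08 CPM in WT and 154 ± 6.41 CPM in KO (SD, n = 3), so that KO stood at 87.7% of WT. This was a log2 fold change of -0.19 (SE 0.07, 95% confidence interval -0.34 to -0.04, edgeR p 0.0214, adjusted p 0.0543), and Hadha was not called, since the fold change was under 1.5. The whole interval lay inside the fold cutoff. Without WT replicate 3 the value was -0.22 (adjusted p 0.00576). Hadha shares 75 exon bases with Garem2, which was not analysed here.

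The beta subunit Hadhb (chr5:30155253-30184593, plus strand), the thiolase that cleaves the chain, gave 76.4, 88.0 and 89.0 CPM in WT and 85.6, 86.8 and 81.0 CPM in KO. The KO samples lay within the range of the WT samples. The means were 84.5 ± 7.03 CPM in WT and 84.5 ± 3.06 CPM in KO (SD, n = 3), with a log2 fold change of 0.00 whose 95% confidence interval ran from -0.19 to 0.19 (SE 0.08, edgeR adjusted p 0.9997). Without WT replicate 3 it was 0.036 (adjusted p 0.711). The sign of a value so near 0 changed with the scaling and with single samples. Hadhb is uncertain in level, since Gm13910 and Gm9108 matched its transcripts at 99.8% over 1428 bases and at 97.6% over 1426 bases.

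Both auxiliary enzymes on the list were called lower in KO. Eci1 (chr17:24426683-24439316, plus strand), the isomerase that shifts a double bond into the position the spiral can use, gave 17.3, 16.9 and 14.6 CPM in WT and 7.97, 8.09 and 10.9 CPM in KO. The groups did not overlap, and KO replicate 3 was nearest to WT. The means were 16.2 ± 1.46 CPM in WT and 9.001 ± 1.69 CPM in KO (SD, n = 3), or 55.4% of WT. On the log2 scale the change was -0.85 (SE 0.16, 95% confidence interval -1.23 to -0.48, edgeR adjusted p 0.00479), and it was -0.93 without WT replicate 3 and -1.01 without KO replicate 3.

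Decr1 (chr4:15917240-15945377, minus strand), the dienoyl-CoA reductase needed for polyunsaturated chains, gave 29.7, 31.97 and 21.8 CPM in WT and 13.0, 12.8 and 14.9 CPM in KO. All KO samples were below all WT samples, and replicate 3 was the WT sample nearest to KO and the KO sample nearest to WT. The means were 27.8 ± 5.33 CPM in WT and 13.6 ± 1.18 CPM in KO (SD, n = 3), or 48.7% of WT. On the log2 scale the change was -1.04 (SE 0.16, 95% confidence interval -1.40 to -0.67, edgeR adjusted p 0.00176), and it was -1.19 without WT replicate 3.

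**Figure D2:**
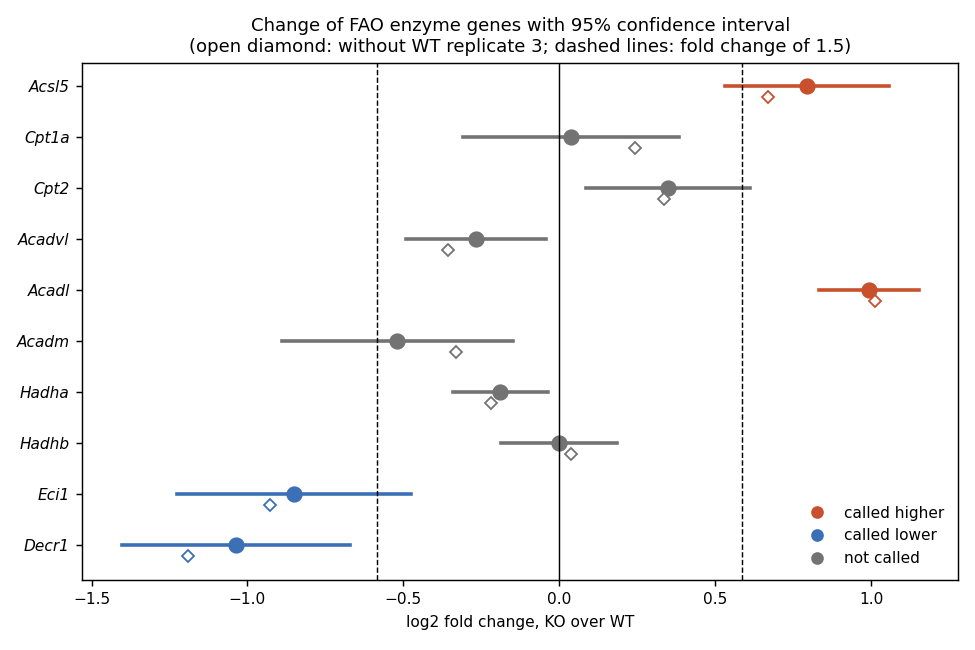
Log2 fold change of KO over WT (horizontal axis) for the 10 enzymes in pathway order. Filled circles and lines give the value and its 95% confidence interval over 6 samples, open diamonds the value without WT replicate 3, and dashed lines the fold cutoff of 1.5. The interval of Acadl lies beyond the cutoff, that of Decr1 likewise on the lower side, and those of Cpt1a, Acadvl, Hadha and Hadhb lie inside it.

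Among the called enzymes, the intervals of Acadl (0.83 to 1.15) and Decr1 (-1.40 to -0.67) lay wholly beyond the fold cutoff of 0.58 on the log2 scale, and those of Acsl5 and Eci1 crossed it. Among the others, the intervals of Cpt1a, Acadvl, Hadha and Hadhb lay wholly inside the cutoff, so that at this depth and replicate spread a change of 1.5-fold in either direction was outside their 95% intervals. The intervals of Cpt2 and Acadm reached past it.

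The spread between replicates was larger in WT than in KO for most enzymes. In WT the coefficient of variation in CPM was 15.2% for Acsl5, 19.2% for Decr1, 22.6% for Acadm and 23.4% for Cpt1a, and at most 10.5% for the other enzymes. In KO it was 18.8% for Eci1 and at most 8.69% for the others. WT replicate 3 was the lowest WT sample for Acsl5, Acadvl, Hadha, Eci1 and Decr1 and the highest for Cpt1a, Acadl, Acadm and Hadhb. Against the mean of the other WT samples it was higher on the log2 scale by 0.55 for Cpt1a and 0.52 for Acadm, and its value was -0.50 for Decr1 and -0.40 for Acsl5.

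To compare enzymes that share a step or a complex, ratios of CPM were taken within each library, where the scaling of the library cancels. The ratio of Hadha to Hadhb was 2.37, 1.99 and 1.90 in WT replicates 1 to 3 and 1.84, 1.81 and 1.80 in KO. The KO ratios were all below the WT ratios and close together, and the difference was -0.19 on the log2 scale. With 3 samples against 3, the smallest p that an exact permutation test can give is 0.1, and this ratio reached it (two-sided, 0.12 after Benjamini-Hochberg adjustment over 6 ratios). Most of the WT spread came from replicate 1, and without it the difference was -0.10.

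The ratio of the long-chain to the medium-chain dehydrogenase, Acadl to Acadm, was 1.18, 1.40 and 0.939 in WT and 3.12, 3.42 and 3.21 in KO. It was higher in every KO sample by a mean of 1.49 on the log2 scale. The ratio of Acadl to Acadvl was 0.373, 0.376 and 0.474 in WT and 0.911, 1.02 and 0.980 in KO, a difference of 1.26. The proportions of the 3 dehydrogenase transcripts thus differed between the genotypes in all 6 libraries, by more than the spread within either, although both tests were at the smallest possible exact permutation p of 0.1 (0.12 adjusted).

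Relative to Hadha, the auxiliary enzymes Eci1 and Decr1 were lower in every KO sample. The ratio of Eci1 to Hadha was 0.0955, 0.0963 and 0.0863 in WT and 0.0505, 0.0516 and 0.0749 in KO, a log2 difference of -0.67. The ratio of Decr1 to Hadha was 0.164, 0.183 and 0.129 in WT and 0.0823, 0.0816 and 0.102 in KO, a log2 difference of -0.83. Each had an exact permutation p of 0.1 (0.12 adjusted). The ratio of Cpt1a to Cpt2, at 12.8, 12.6 and 18.9 in WT and 12.2, 12.9 and 10.7 in KO, overlapped between genotypes (log2 difference -0.28, exact permutation p 0.3, adjusted p 0.3), and its difference was -0.09 without WT replicate 3.

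**Figure D3:**
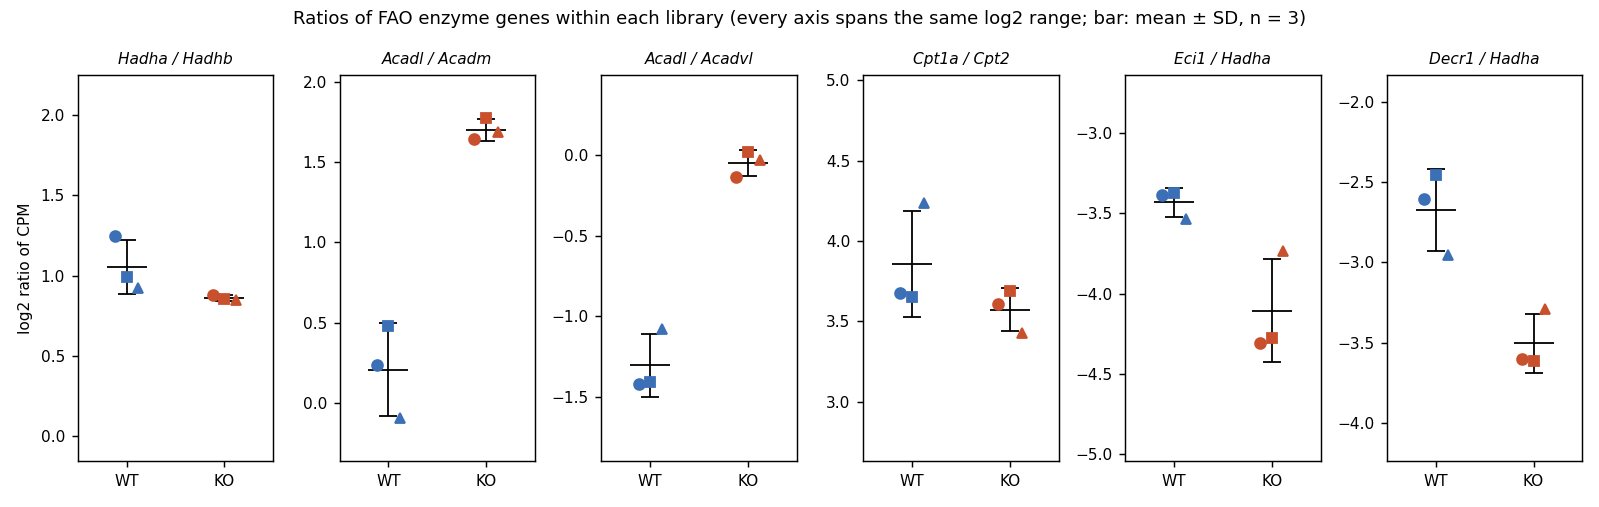
Log2 ratio of CPM between pairs of enzymes within each library (vertical axes, each spanning the same log2 range), with WT in blue and KO in red. Points are samples, with circle, square and triangle for replicates 1, 2 and 3, and bars give the mean ± SD (n = 3). The ratios of Acadl to Acadm and of Acadl to Acadvl are higher in every KO sample, those of Eci1 and Decr1 to Hadha are lower, and that of Cpt1a to Cpt2 overlaps.

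To place the enzymes beside each other, counts were divided by transcript length and scaled to the same total in each sample (the TPM scale). On this scale the level in WT was 95.5 ± 12.8 for Acadvl, 94.4 ± 6.89 for Hadha, 89.2 ± 4.56 for Hadhb, 82.4 ± 16.7 for Cpt1a and 70.4 ± 12.7 for Acsl5 (mean ± SD, n = 3). Each of these overlapped its neighbour in the order over the WT samples. Below them came Acadl at 42.0 ± 0.418 and Acadm at 34.5 ± 6.89, which did not overlap each other, then Eci1 at 31.8 ± 3.94, which overlapped Acadm. Decr1 followed at 20.4 ± 4.38 and Cpt2 was the lowest at 14.3 ± 0.829, both without overlap with the neighbour above.

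In KO the order of levels on the TPM scale changed at several places. Acsl5 stood first at 120.7 ± 5.23 and did not overlap the next enzyme. Hadhb at 88.6 ± 3.60, Cpt1a at 84.1 ± 3.40, Acadl at 82.8 ± 1.82, Hadha at 82.0 ± 3.77 and Acadvl at 78.4 ± 5.50 followed, and each overlapped the one after it. Acadl thus moved from the middle of the order into the range of the trifunctional protein subunits. Acadm at 23.9 ± 1.55 lay below them, Cpt2 at 18.0 ± 1.16 and Eci1 at 17.4 ± 3.18 overlapped, and Decr1 was the lowest at 9.83 ± 0.809. Over both genotypes the enzymes lay between the 42.9th percentile (Decr1) and the 85.0th percentile (Acsl5) of the 13389 genes with a known length. The order among the upper enzymes depends on the transcript length used, and with the longest transcript of each gene Hadhb stood at 53.9 in WT and 53.0 in KO, below Acadl in both.

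**Figure D4:**
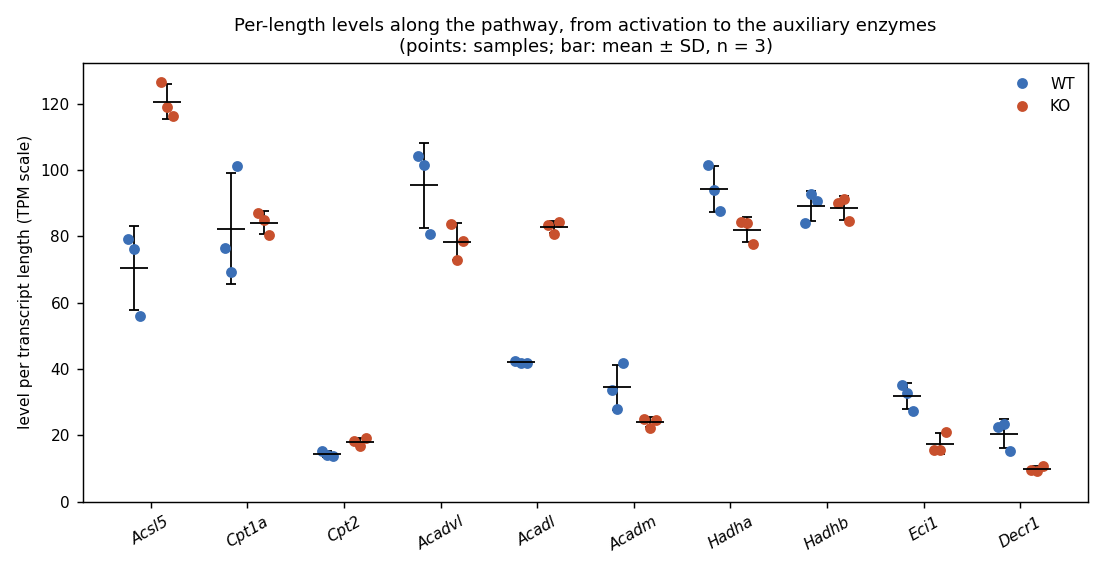
Level per transcript length (TPM scale, vertical axis, linear from 0) of the 10 enzymes in pathway order in WT (blue) and KO (red). Points are samples and bars give the mean ± SD (n = 3). Acsl5 has the highest KO level, 120.7, and Acadl rises from 42.0 in WT to 82.8 in KO, beside Hadha and Hadhb.

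The other genes of fatty acid handling were read from 7 lists written by role, of which 65 of 71 genes were tested and Fabp4, Acaa1b, Abcd2, Ppard, Ppargc1a and Prkaa2 were not analysed here. In all, 14 of the 65 (21.5%) were called, 9 higher and 5 lower, beside 24.4% of all genes. Their median log2 fold change was 0.03.

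Among 11 genes of fatty acid activation and uptake, 4 were called and the median log2 fold change was 0.22. Fabp5, a fatty acid carrier of the cytosol, rose from 31.4 ± 1.42 to 47.5 ± 3.30 CPM (log2 fold change 0.60, edgeR adjusted p 0.00137). Slc27a1, a fatty acid transporter with synthetase activity, fell from 18.5 ± 1.46 to 10.02 ± 1.14 CPM (-0.88, adjusted p 0.00153).

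Lpl, the lipase of circulating lipoproteins, passed at a low level, 0.553 ± 0.261 against 1.41 ± 0.592 CPM (1.33, adjusted p 0.0820), with samples that overlapped, and was not called without WT replicate 3. Other synthetases and transporters were not called over all 6 samples. Acsl3, a further synthetase, had a log2 fold change of -0.55 (adjusted p 0.0637) and was called lower at -0.70 without WT replicate 3. Acsl4 had a log2 fold change of 0.27 (adjusted p 0.0355, under the fold cutoff), Slc27a4 of -0.36 and Acsl1 of 0.22.

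In the carnitine shuttle, 3 of 6 further genes were called by edgeR and 2 by DESeq2. Crat, which moves short acyl groups between carnitine and coenzyme A, rose from 4.81 ± 1.08 to 7.54 ± 0.346 CPM (0.65, edgeR adjusted p 0.0402), and Cpt1c, best known from the brain, rose from 0.736 ± 0.238 to 1.79 ± 0.882 CPM (1.27, adjusted p 0.0768). Slc22a5, the carnitine transporter of the plasma membrane, gave 34.2, 31.97 and 140.4 CPM in WT and 27.7, 27.8 and 27.0 CPM in KO. Its call as lower (-1.32, adjusted p 0.0879) rested on WT replicate 3, and without that sample the value was -0.27 and was not called. The carrier of the inner membrane, Slc25a20, stood at 0.12, Crot at 0.16 and Cpt1b at -0.29, and none was called.

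Of 10 further genes of the spiral, only Acad10 was called, and the median log2 fold change was -0.21. Acad10, an acyl-CoA dehydrogenase family member, fell from 11.6 ± 0.919 to 6.74 ± 1.15 CPM (-0.78, edgeR adjusted p 0.00784). By mean CPM over both genotypes, without regard to length, the highest members were Hadh, Acaa2 and Acat1, which serve the second dehydrogenation and thiolysis. Their log2 fold changes were 0.12, 0.09 and 0.24, and none was called. Hsd17b10, a dehydrogenase of the spiral for short branched chains, stood at 42.1 ± 3.40 in WT and 28.5 ± 2.12 CPM in KO without overlap (-0.56, adjusted p 0.00316, under the fold cutoff), and was called lower at -0.61 without WT replicate 3.

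Among 10 genes for unsaturated chains, odd chains and electron transfer, Decr2 and Mcee were called lower by edgeR, and DESeq2 called 3. Decr2, the peroxisomal counterpart of Decr1, fell from 15.1 ± 1.73 to 6.51 ± 0.951 CPM (-1.21, edgeR adjusted p 0.000981), so that both dienoyl-CoA reductases were lower in KO. Mcee, an epimerase of propionate breakdown, fell from 5.66 ± 1.07 to 3.56 ± 0.904 CPM (-0.67, adjusted p 0.0805). Etfa, a subunit of the flavoprotein that takes electrons from the acyl-CoA dehydrogenases, stood at 41.1 ± 2.93 in WT and 61.6 ± 0.945 CPM in KO with no overlap, and at 0.58 (adjusted p 0.00102) it missed the fold cutoff narrowly. Its partner Etfb had 0.14 and the isomerase Eci2 had 0.13, and neither was called.

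Of 9 peroxisomal beta-oxidation genes, 0 were called by edgeR and 0 by DESeq2. Scp2 and Acaa1a, both among the highest in mean CPM, had log2 fold changes of -0.01 and -0.22. At an unadjusted edgeR p under 0.05, 3 genes passed without reaching the fold cutoff.

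Of 9 regulators, Rxra and Acaca were called higher. Rxra, the nuclear receptor that pairs with the PPARs, rose from 64.0 ± 10.3 to 145 ± 4.35 CPM (1.18, edgeR adjusted p 0.000295). Acaca, which makes the malonyl-CoA that inhibits Cpt1a, gave 57.6, 50.3 and 30.6 CPM in WT and 71.0, 73.7 and 74.5 CPM in KO. Its rise (0.66, adjusted p 0.0348) was 0.43 and not called without WT replicate 3. Esrra, a nuclear receptor of mitochondrial genes, had -0.38 (adjusted p 0.00810) and Mlycd, which breaks down malonyl-CoA, -0.40 (adjusted p 0.0267), both under the fold cutoff, and Prkaa1, a catalytic subunit of AMP-activated kinase, had -0.20.

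Of 10 genes of lipid droplets and lipolysis, 2 were called higher by edgeR, and DESeq2 called 3. Dgat1, which makes triglycerides, rose from 23.1 ± 2.30 to 52.3 ± 3.38 CPM (1.18, edgeR adjusted p 0.000151), and Hilpda, an inhibitor of lipolysis, rose from 8.35 ± 2.09 to 12.8 ± 0.00691 CPM (0.61, adjusted p 0.0377). Pnpla2, the first lipase of triglyceride breakdown, had 0.57 (adjusted p 0.0111), just under the fold cutoff, and was called at 0.74 without WT replicate 3. Lipa and Plin3 had -0.28 and -0.35 and were not called.

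**Figure D5:**
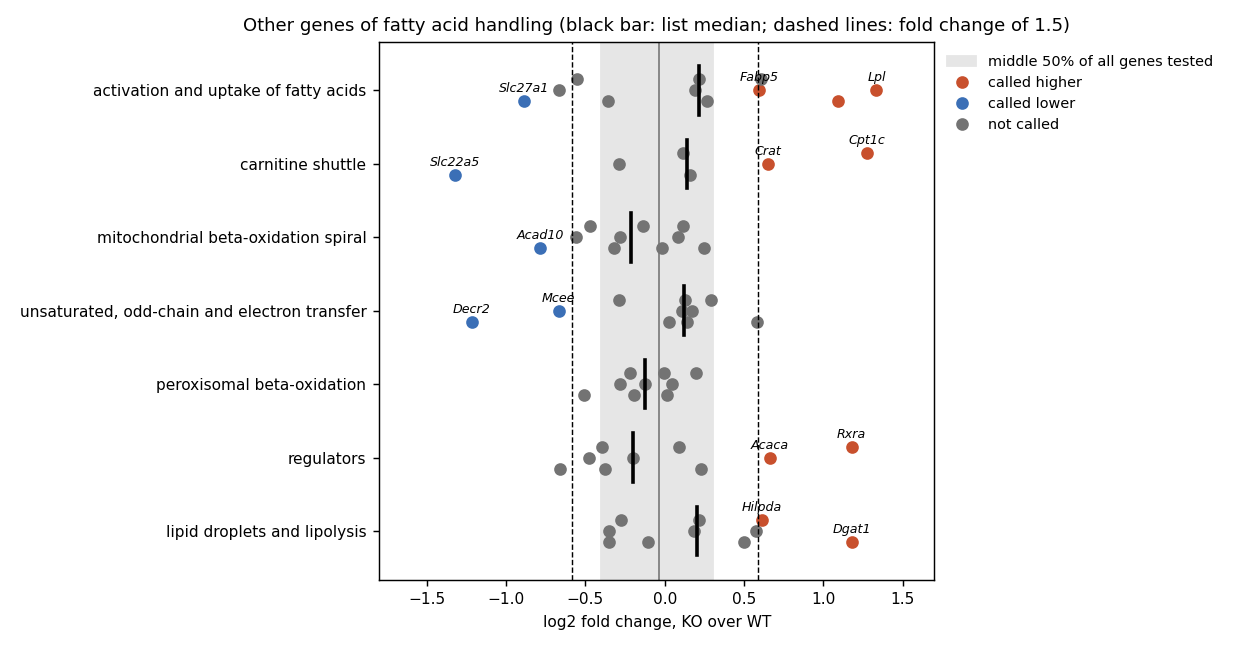
Log2 fold change of KO over WT (horizontal axis) for 65 other genes of fatty acid handling in 7 lists (rows). Points are genes, colored by call and offset vertically for legibility, black bars are list medians, dashed lines the fold cutoff of 1.5, and the gray band the middle 50% of all genes tested. Called genes are named where they are described in the text, and the list medians lie between -0.21 and 0.22, inside the band.

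The labelled cell type was checked against defining markers, and other markers that moved with genotype are given beside the enzymes. The summed level of 6 Treg markers was 3927 to 5104 CPM in WT, highest in replicate 3, and 3309 to 3405 CPM in KO, with Foxp3 and Ikzf2 called lower. The others were not called and did not all move the same way. Cd4 was higher in KO (log2 fold change 0.26, edgeR adjusted p 0.0143, under the fold cutoff). Il2ra had -0.12, Ctla4 -0.41 and Cd3e -0.45. The call of Foxp3 (-0.88) rested on WT replicate 3, since without it the value was -0.57 and was not called. Of 10 proliferation markers all were called higher in KO, with sums of 3892 to 4076 CPM against 750.4 to 1426 CPM in WT, where replicate 3 was the lowest. The sum of 6 myeloid markers was 16.7 to 28.7 CPM in WT and 53.9 to 60.8 CPM in KO, with 5 called higher (4 without WT replicate 3), and the sum of 5 B cell markers was 18.0 to 20.1 CPM in WT and 12.1 to 12.6 CPM in KO, with 1 called lower. The CD8 T cell markers summed to 9.32 to 13.2 CPM in WT and 12.02 to 12.7 CPM in KO. Cd8a was called higher (1.86 against 3.71 CPM, log2 fold change 0.997). Cd8b1, the larger part of the sum, was not (9.16 against 8.69 CPM, -0.08, edgeR adjusted p 0.757). The 2 NK cell markers summed to 1.71 to 2.58 CPM in WT and 3.39 to 5.05 CPM in KO, with Klrb1c called higher (1.08).

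Sums of 3 endothelial or stromal markers were 192 to 206 CPM in WT and 137 to 145 CPM in KO, nearly all of it Pecam1, which T cells also express, and sums of 4 red blood cell markers were 16.3 to 69.2 and 29.3 to 35.5 CPM, with 2 called lower only without WT replicate 3. No marker found in the table was at 0 in any sample, and 4 adipocyte markers were not analysed here. The part of these shifts in the differences between the FAO enzymes was not tested. In such bulk samples, fewer cells of a type and less RNA per cell cannot be told apart.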

How the data were processed

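RNA-Seq had been done on total RNA of sorted Tregs from 3 WT and 3 KO samples, grouped by the labels. Per the study's methods and the submitters' processing notes, the authors filtered reads with SOAPnuke, aligned them with HISAT2 to mm10 with 1 alignment kept for each read, and used StringTie for expression and DESeq2 for testing. The authors deposited whole-number counts per gene without normalization, and how these were obtained, the strand setting and the annotation were not given in the sources used here. Every gene had at least 60 counts in sum. Keeping 1 alignment per read can assign reads to a near-identical copy.

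From these counts, edgeR 4.0.16 (R 4.3.3) compared KO with WT over all 13594 genes kept by filterByExpr (minimum count 10), with TMM scaling, glmQLFit and a two-sided glmQLFTest, and Benjamini-Hochberg adjustment over all genes tested. The SE is the size of the log2 fold change divided by the square root of F. Symbols were matched after removing spaces. Gene positions came from RefSeq (GRCm38.p6). Strands, overlaps, near copies and transcript lengths came from GENCODE M21, with lengths as the median of a gene's basic transcripts, for 97.9% of symbols. Near copies were sought by aligning transcripts. Alternatives were DESeq2 1.42.0, other scaling, filters and cutoffs, GC and length offsets, a replicate block and leaving out each sample. The correlation of deviations between samples with the same number was 0.04, 0.04 and -0.01. The procedure was tested on simulated counts. The enzymes and lists were chosen with earlier results of these data known. Named genes are Zfp335, the enzymes, called list members and up to 3 uncalled members per list of highest mean CPM. Acsl3, Hsd17b10 and the single markers were named after their values were seen. Some list members are counted but not reported here by name. The floor of 3 counts covers counting error only.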

Additional observations from a re-analysis of the deposited data

How the results depend on the processing

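Acsl5 and Acadl were called higher and Eci1 and Decr1 lower under DESeq2, RLE size factors, library totals alone, both other filters, the GC and length offsets, and without each sample in turn. Without WT replicate 2, Acadm was also called lower (-0.65). Cpt1a and Hadhb, which were not called, changed sign. With samples left out, Cpt1a ranged from -0.077 (without WT replicate 2) to 0.24 (without WT replicate 3), and Hadhb from -0.068 (without WT replicate 1) to 0.036 (without WT replicate 3). Hadhb was also at -0.038 with library totals alone and at -0.058 with the offsets, and the cause was not tested.

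The cutoff moved counts most. With glmTreat and a tested fold change of 1.5 (adjusted p under 0.05), 2 enzymes were called, 1 higher (Acadl) and 1 lower (Decr1), with 3 genes of the wider lists (2 higher, 1 lower) and 1402 of all genes (800 higher, 602 lower). At an adjusted p under 0.05 and any fold change, 6 enzymes were called, with Cpt2 and Acadm added, beside 22 genes of the wider lists (12 higher, 10 lower) and 5244 of all genes (2610 higher, 2634 lower, 38.6% of those tested). With samples left out, the wider lists had 5 to 8 genes called higher (5 without KO replicate 3) and 3 to 6 called lower (3 without KO replicate 2). The scalings moved the median of all genes by at most 0.04 on the log2 scale.

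Whether same-numbered samples shared more than a number was not known. With the replicate number as a block, 4 enzymes were called (2 higher, 2 lower), 15 genes of the wider lists and 3190 of all genes. The longest transcript in place of the median length moved the per-length levels of all 10 enzymes. With 3 samples per genotype, the ratios could not reach an exact permutation p under 0.1.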
